A study of Schizosaccharomyces pombe with 30 samples.

Results

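The mating type (MAT) locus of fission yeast and the chromosome on either side of it were described from H3K9me2 ChIP-seq, by position and across 5 genotypes. The regions were taken by coordinate alone: all rows of the mating type contig, the filtered 300 bp windows of chromosome II between 2100001 and 2160000, and the 5 kb bins of chromosome II between 1900001 and 2400000. This gave 113 of the 1500 windows and 105 of the 2520 bins in the tables. Of the windows, 65 lay on the contig, 17 on the left flank, 25 on the copy of the locus in the chromosome II reference and 6 on the right flank. The contig was split into 4 parts of 5 kb, numbered from the left. A locus copy window had its midpoint between the outer edges of the inverted repeats.

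Of the 13 libraries, 3 (A, B and C) came from each of Δfkh2, Δprw1 and clr3-D232N, 2 (A and B) from clr6-1 and 2 (B and C) from wild-type. Every strain, wild-type included, was of the MAT ΔREIII background, in which both short Atf1/Pcr1 sites of the REIII element are deleted. Every strain also carried fluorescent reporters: 1 within cenH, 1 at the EcoRV site of mat3-M and 1 on the right flank between SPBC1711.11 and SPBC1711.12, 20.4 kb from the edge of the locus copy. Cells were grown in rich medium at 32°C for 8 h. The clr6-1 allele is a hypomorph of an essential gene, whereas clr3-D232N is catalytically dead. Each genotype was represented by 1 strain. The study's methods call the replicates biological, and p-values measure the spread between these libraries.

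The mating type locus of *S. pombe* is a silent domain that holds the donor cassettes mat2-P and mat3-M, bounded by the inverted repeats IR-L and IR-R. Between the cassettes lies cenH, a stretch homologous to the pericentromeric dg and dh repeats, where RNAi recruits the H3K9 methyltransferase Clr4. From such nucleators the mark spreads until boundaries stop it, and the boundary repeats carry B-boxes, binding motifs of the RNA polymerase III factor TFIIIC. Histone deacetylation helps both steps. Clr6 is a class I deacetylase, Prw1 a structural subunit of its complexes and Fkh2 a forkhead transcription factor associated with them. Clr3 is the class II deacetylase of the SHREC complex.

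A self-alignment of the chromosome II interval placed the left inverted repeat at chrII:2129230-2131311 and the right one at chrII:2135018-2137098, 99.9% identical (RefSeq assembly ASM294v3, plus strand). The copy between their outer edges was 7869 bases long. It holds 1 cassette, mat3-M, so most of the contig, which is 20128 bases long, has no counterpart there. The sequences below are 4 windows in the right part of the locus copy. They were chosen for what they hold, the motifs named here and the end of the right repeat, with results already known. All 4 mutants were called lower in the second and last of these windows. The sequences are those of the RefSeq reference (ASM294v3, plus strand), not those of the strains. The first holds the only EcoRV site of the locus copy, in capitals, at chrII:2133909-2133914, and is intergenic. The second, also intergenic, held the lowest Δprw1 counts of the copy; capitals mark a TGACGT core of Atf1/Pcr1 sites and a forkhead motif, GTAAACA, both on the minus strand. The third holds, in capitals, the outer B-box (GTTCNANNC, minus strand) of the right repeat. In the last one the end of the right repeat is in capitals and the bases beyond it in lower case; the noncoding RNA gene SPNCRNA.391 overlaps its right part.
chrII:2133901-2134200: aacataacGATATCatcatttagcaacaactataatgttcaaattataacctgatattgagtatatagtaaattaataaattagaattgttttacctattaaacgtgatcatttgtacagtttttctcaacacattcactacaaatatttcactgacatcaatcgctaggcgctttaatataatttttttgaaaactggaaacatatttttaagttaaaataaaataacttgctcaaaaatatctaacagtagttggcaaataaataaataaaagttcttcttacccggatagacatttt
chrII:2134201-2134500: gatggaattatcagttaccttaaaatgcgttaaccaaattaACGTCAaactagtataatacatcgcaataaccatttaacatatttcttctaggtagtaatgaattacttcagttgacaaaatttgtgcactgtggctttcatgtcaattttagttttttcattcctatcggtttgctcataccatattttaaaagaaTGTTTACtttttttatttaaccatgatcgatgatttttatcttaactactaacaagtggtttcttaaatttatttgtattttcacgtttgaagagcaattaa
chrII:2136601-2136900: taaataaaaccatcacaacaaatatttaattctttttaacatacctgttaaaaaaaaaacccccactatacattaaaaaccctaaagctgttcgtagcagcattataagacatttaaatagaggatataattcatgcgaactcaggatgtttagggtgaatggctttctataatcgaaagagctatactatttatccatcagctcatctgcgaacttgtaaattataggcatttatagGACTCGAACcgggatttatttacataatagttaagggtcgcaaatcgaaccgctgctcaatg
chrII:2136901-2137200: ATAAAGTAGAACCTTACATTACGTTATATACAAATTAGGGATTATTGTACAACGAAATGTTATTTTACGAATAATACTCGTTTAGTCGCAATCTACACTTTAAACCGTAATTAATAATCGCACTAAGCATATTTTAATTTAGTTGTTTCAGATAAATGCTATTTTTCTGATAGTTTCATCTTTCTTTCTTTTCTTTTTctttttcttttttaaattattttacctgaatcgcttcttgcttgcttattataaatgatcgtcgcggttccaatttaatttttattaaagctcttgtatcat

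Motifs were searched on both strands. An EcoRV site (GATATC) occurred in 7.7% of all 300 bp windows of the genome, GTAAACA in 9.16%, TGACGT in 4.76% and GTTCNANNC in 9.74%, and no motif overlapped another. The locus copy held 1 match each of the first 3 and 5 of the last, of which 4 lay in the repeats, 2 in each, and the fifth beside mat3-Mc. The outer B-boxes lay 252 and 251 bases from the outer edges of the left and right repeats. Whether the TGACGT match is one of the deleted REIII sites was not tested. The window with the EcoRV site, where a reporter is inserted in the strains, was not among the filtered windows, and neither was the contig window from 16801 to 17100 into which that site falls by the profile match described next.

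Totals of the 5 kb bins were 4408669 to 12641248 fragments per library, and counts were divided by size factors from the same bins, where the median bin held 1752.5 to 1769.6 normalized counts. The genes fkh2, prw1, ade6 and ura4 lie in regions that were set aside before counting, and the bins that hold them were at 0.0884 to 0.389 times the library median in every library, so the deletions could not be checked from these tables. Those dips fell at the coordinates of the annotation, and all 3 chromosome lengths were equal to those of the tables. Among replicates, Δfkh2 B and Δprw1 B stood above A and C of their genotypes. In windows fell 50.5% of the Δfkh2 B counts, against 30.8% and 36.9% for A and C. For Δprw1 B the share was 64.5%, against 33.1% and 37.4% for A and C. Wild-type B was above wild-type C, with 70.2% against 57.3% of counts in windows. Results that rest on these libraries are given with and without them.

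Part of the locus is counted in more than 1 place. The contig was placed against the chromosome II copy by matching the count profiles of all libraries. The left end matched best at r = 0.91 over 8 windows and the right end at r = 0.96 over 13 windows, on a grid of 50 bases. These r values describe windows that share libraries and depth. By that match, mat3-Mc lies at 15879 to 16424 on the contig, and the chromosome copy lacks everything between 3287 and 15497. The 24 contig windows outside that stretch averaged 0.987 to 1.02 times the mean of the 25 locus copy windows in each of the 13 libraries. The left and right repeats of chromosome II likewise held equal counts, at ratios of 0.974 to 1.03. In wild-type B and C the count went up to 10862 and 6288 in the contig window from 3301, against 4059.5 and 2205 in the window from 3001. A read from a shared sequence can be placed on any copy. The level of the inner stretch and that of the ends can therefore not be compared, and contig ends and locus copy are not independent measurements. Values are compared between genotypes within a window.

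Over the 65 contig windows, H3K9me2 was lowest in clr3-D232N and not below wild-type in clr6-1, with Δfkh2 and Δprw1 between. Summed normalized counts were 24319, 28322 and 33268 in clr3-D232N, against 428348 and 243282 in wild-type. The log2 level fell by 3.51 (14.79 ± 0.23 against 18.30 ± 0.58, SD over 3 and 2 libraries). In clr6-1 the sums were 433569 and 415339, 1 just above and 1 within the wild-type range (log2 difference 0.39). This difference was -0.01 without wild-type C. The Δfkh2 sums were 91512, 237406 and 71888, and those of Δprw1 were 55936, 192324 and 93524, all below both wild-type libraries (log2 differences -1.48 and -1.69). With TMM factors from the windows, which assume that most windows do not change, the differences were -0.28 in Δfkh2, -0.17 in Δprw1 and -1.69 in clr3-D232N, and with total bin counts -0.66 in Δfkh2, -1.03 in Δprw1 and -2.42 in clr3-D232N. The exact permutation test (2-sided) gave p = 0.1 for clr3-D232N, the smallest that 3 libraries against 2 allow, and p = 0.2 for Δfkh2 and for Δprw1. For clr6-1 the exact test gave p = 0.667, where 2 against 2 cannot go below 0.333. None of these single-value tests could reach 0.05.

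Relative to the other heterochromatin in the tables, the contig stood out in clr3-D232N. The log2 ratio of the contig to the 1387 windows outside the MAT regions was -6.08, -5.76 and -5.66 in clr3-D232N, against -4.58 and -4.53 in wild-type (difference -1.28, exact p = 0.1). In clr6-1 it was -4.32 and -4.52, a difference of 0.13 with both libraries above wild-type, and 2.45 with medians over windows in place of sums. In clr3-D232N medians gave -2.16. The Δfkh2 ratios, -4.28, -4.11 and -5.07, lay on both sides of the wild-type ones, and those of Δprw1 were -5.18, -5.28 and -4.69 (difference -0.50, exact p = 0.2, but 1.58 with medians).

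**Figure D1:**
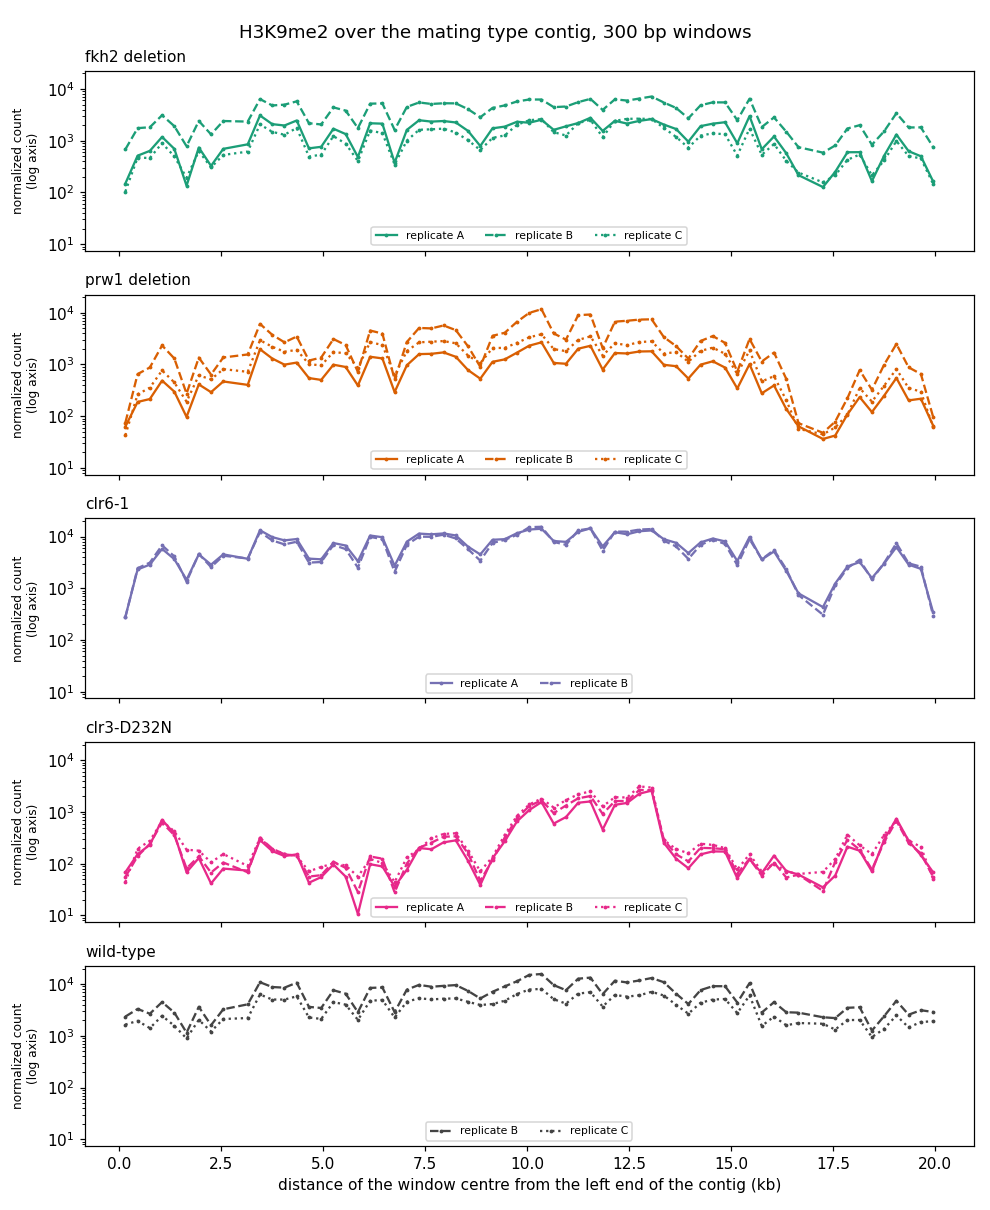
Normalized count (log axis) of each 300 bp window along the contig against its distance from the left end (kb), 1 panel per genotype and 1 line per replicate. The clr3-D232N lines stand apart from about 9.9 to 13.2 kb, where they reach 3129, and the Δprw1 lines dip to between 36.3 and 47.8 at about 17 kb, where wild-type held 2284 and 1709.

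Window by window, the edgeR quasi-likelihood test with Benjamini-Hochberg adjustment over all 1500 windows was used, and a window was called where its log2 fold change exceeded 1 in size and its adjusted p was under 0.005. In clr3-D232N 108 of 113 windows were lower than in wild-type, among 64.9% of all windows. In Δprw1 67 were lower, among 48.3% of all windows. In Δfkh2 25 were lower, among 36.0%, and in clr6-1 13 were lower, among 36.4%. No window of these regions was called higher in any mutant, while among all windows 0.867% were higher in clr3-D232N, 0.4% in clr6-1, 0.133% in Δfkh2 and 0.0667% in Δprw1. Nor was any of the 113 higher at an unadjusted p under 0.05 (0 in each mutant). The Δfkh2 count rested on single libraries. It was 95 without Δfkh2 B, 14 without Δfkh2 A, 11 without Δfkh2 C and 9 without wild-type B. With replicate B of both deletions left out it was 107. The Δprw1 count was 108 without Δprw1 B and 36 without wild-type B, and the clr6-1 count 7 without clr6-1 B.

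The median log2 fold change over the contig windows was -4.81 in clr3-D232N, against -2.46 over all windows. In Δprw1 it was -1.68 (-1.53 over all windows), in Δfkh2 -1.30 (-1.38 over all windows) and in clr6-1 0.33 (0.02 over all windows). Non-overlap of the libraries gave the same order. All 65 contig windows had every clr3-D232N library below both wild-type libraries (75.3% of all windows did). In Δprw1 this held for 54 contig windows (59.1% of all windows), in Δfkh2 for 33 (65.1%) and in clr6-1 for 5 (44.9%). In clr6-1, both libraries were above both wild-type libraries in 25 contig windows (30.7% of all windows).

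The loss in clr3-D232N was not even along the contig. The 5 windows not called among the 113 were 2 of contig part 3 and 3 of the right flank. The contig ones, from 12601 and from 12901, held the highest clr3-D232N counts of the contig. The first had 2266, 2674 and 3129 normalized counts in clr3-D232N, against 11740.5 and 6069 in wild-type (log2 fold change -1.73 ± 0.69 SE, adjusted p = 0.017). One window further right, from 13201, clr3-D232N held 254, 290.2 and 286, against 10858 and 6008 in wild-type (-4.93 ± 0.73, adjusted p = 5e-11). The clr3-D232N level thus dropped from one window to the next while wild-type stayed level. On the left the change was stepwise: clr3-D232N A had 128, 273, 661, 1090.3 and 1559 counts in the 5 windows from 9001 to 10500.

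The longest run of contig windows above 10% of the wild-type mean in clr3-D232N was 11 windows from 9901 to 13200, at 11.1% to 30.2%. This boundary was chosen after the values were seen and has no test. The other 54 contig windows had a median of 2.98%. Of them 8 were above 10%, the highest at 19.4%. The lowest window was that from 8701, with 38.9, 46.8 and 71.3 in clr3-D232N, against 5269 and 3940.5 in wild-type (-6.45 ± 0.71, adjusted p = 2.5e-18). Per base, these clr3-D232N counts were below those of the median 5 kb bin, and that floor limits the size and rank of the fold change. The window with the highest wild-type mean, from 10201, lay inside the run, with 1559, 1678 and 1824 in clr3-D232N, against 15652 and 8059 in wild-type (-2.81 ± 0.71, adjusted p = 0.00017). The position of cenH on the contig was not determined here. The paper masked cenH in its own MAT track, since its sequence is shared with centromeres and telomeres and signal there is pooled. Whether the counts of this run came from the MAT locus or from such shared reads was not tested.

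A second, smaller residue in clr3-D232N lay inside the inverted repeats. In the contig window from 18901, within the right repeat, clr3-D232N held 742, 677 and 685, against 4749 and 2474 in wild-type (-2.36 ± 0.63, adjusted p = 0.00036). The window from 901 in the left repeat had 708, 625 and 668 in clr3-D232N, against 4483 and 2433 in wild-type (-2.37 ± 0.63, adjusted p = 0.0003). On chromosome II the overlapping window, chrII:2135701-2136000, overlaps the noncoding RNA genes SPNCRNA.390 and SPNCRNA.5507 and had 636, 550.5 and 596 in clr3-D232N, against 4118 and 2169 in wild-type. These 3 windows hold overlapping repeat sequence and are not separate observations. In the cassette the level was lower. At chrII:2133001-2133300, within mat3-Mc, which encodes a high mobility group regulator of M cells, clr3-D232N had 122, 107 and 103, against 4220.0 and 2269.5 in wild-type (-4.87 ± 0.66, adjusted p = 1e-12). That sequence also occurs at mat1.

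**Figure D2:**
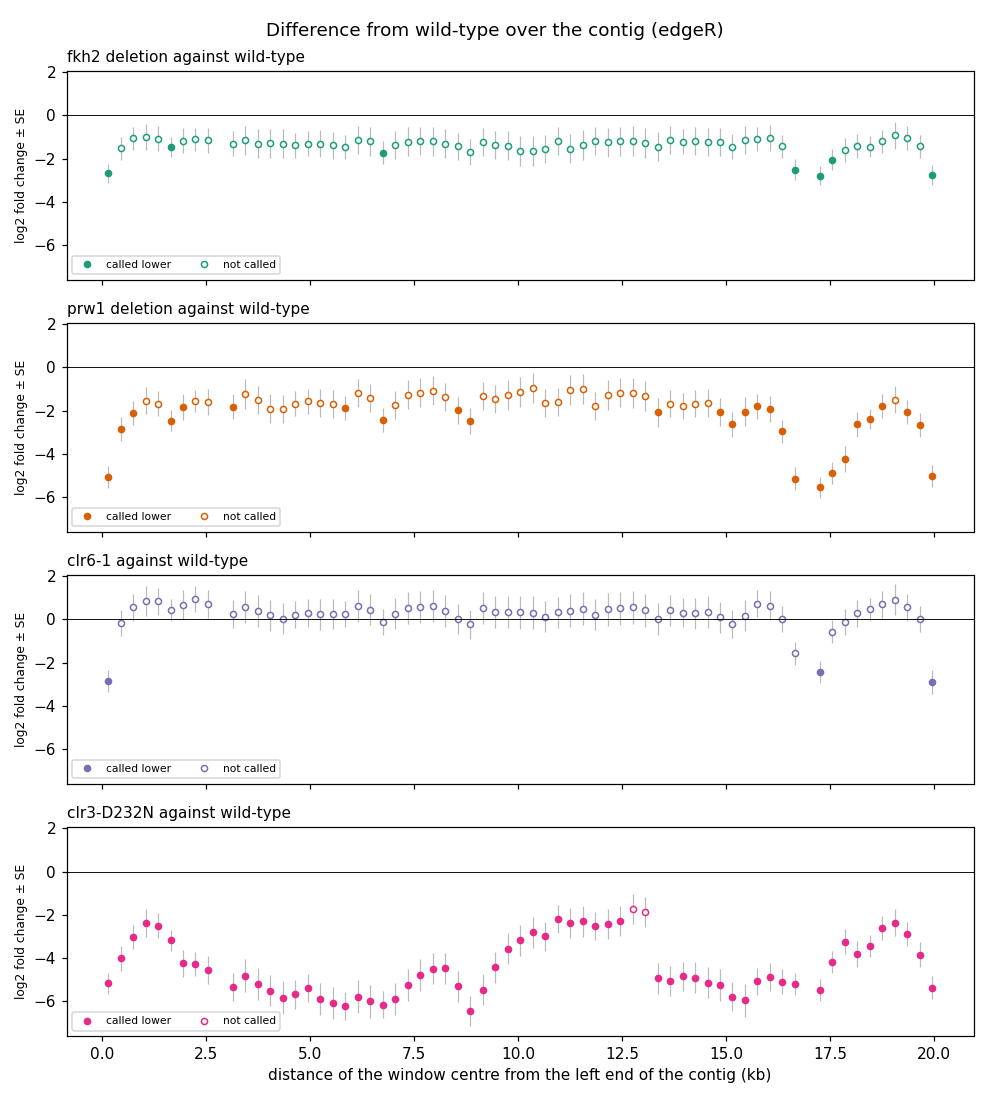
Log2 fold change against wild-type (± SE, edgeR) of each contig window against its distance from the left end (kb), 1 panel per mutant, with filled points for windows called lower. In clr6-1 only 3 of 65 windows are filled, the first, the last and that at about 17 kb, and in clr3-D232N all but the 2 from 12601 and 12901.

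The clr6-1 strain was not called different from wild-type over most of the contig, and lower at its outermost windows. In the first window, 1 to 300, counts were 280.4 and 275 in clr6-1, against 2353 and 1647 in wild-type (-2.85 ± 0.52, adjusted p = 4.7e-07). In the last window, from 19801, they were 343 and 297 in clr6-1, against 2884 and 1909 in wild-type (-2.90 ± 0.55, adjusted p = 9e-07). Both windows lie at the outer edge of an inverted repeat. At the right edge on chromosome II, chrII:2136901-2137200, the last of the sequences shown above, counts were 160.2 and 125 in clr6-1, against 1538 and 1103 in wild-type (-3.21 ± 0.43, adjusted p = 1.7e-11). The groups were far apart in all 3.

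Going inward, the next windows were not called. In the window with the outer B-box, chrII:2136601-2136900, clr6-1 had 1682 and 1863, against 4090.3 and 2456 in wild-type (-0.88 ± 0.61, adjusted p = 0.24). In the next, chrII:2136301-2136600, it had 3101 and 3461, against 2765 and 1474 in wild-type (0.63 ± 0.62, adjusted p = 0.46). In the left repeat clr6-1 had 1481 and 1583 at chrII:2129401-2129700, against 4293 and 2656 in wild-type (-1.18 ± 0.61, adjusted p = 0.1). As a ratio of the 3 edge windows to the 12 windows wholly inside a repeat, clr6-1 was at 0.0822 and 0.0668, against 0.725 and 0.877 in wild-type. The other mutants were also low in this ratio, at 0.213, 0.32 and 0.213 for Δfkh2, 0.204, 0.0678 and 0.13 for Δprw1, and 0.201, 0.171 and 0.139 for clr3-D232N. The ratio was chosen after the values were seen and has no test. In Δfkh2, Δprw1 and clr3-D232N, the first and last contig windows and chrII:2136901-2137200 were each called lower too, by -2.68 to -2.84 in Δfkh2, -5.01 to -5.15 in Δprw1 and -5.17 to -5.37 in clr3-D232N. The mean of these windows in each Δprw1 and clr3-D232N library was, per base, below the median 5 kb bin, which limits those sizes.

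A second site of loss lay between mat3-M and the right repeat, next to the EcoRV site. In the contig window from 17101, clr6-1 had 433 and 308, against 2284 and 1709 in wild-type (-2.43 ± 0.51, adjusted p = 1.1e-05). Δfkh2 had 127, 589 and 156 there (-2.78 ± 0.45, adjusted p = 2e-08), with every library below wild-type. Δprw1 had 36.3, 47.8 and 44.6 (-5.55 ± 0.50, adjusted p = 6.8e-26). clr3-D232N had 34.9, 29.8 and 69.6 (-5.46 ± 0.50, adjusted p = 2e-25), so Δprw1 and clr3-D232N overlapped and the difference between them, 0.08 ± 0.43, was not called. The window with the forkhead and Atf1/Pcr1 motifs, chrII:2134201-2134500, overlaps the contig window from 17101 by the profile match and is not a separate observation. It showed the same order. Counts there were 29.8, 34.2 and 35.3 in Δprw1, against 2271 and 1755 in wild-type (-5.93 ± 0.52, adjusted p = 2.2e-27), the lowest fold change of Δprw1 among the 113 windows. In clr6-1 they were 583 and 426 (-1.99 ± 0.51, adjusted p = 0.00034), in Δfkh2 121, 691 and 178 (-2.61 ± 0.45, adjusted p = 1.9e-07) and in clr3-D232N 29.5, 34 and 62.3 (-5.56 ± 0.51, adjusted p = 2.7e-25). Per base, the Δprw1 and clr3-D232N counts in both windows were below those of the median 5 kb bin. The sizes of their fold changes, and any difference between them, are limited by that floor. The reporter at the EcoRV site and the REIII deletions are in all strains, wild-type included, and their part in the differences in these windows was not tested here. The paper made clr6-1 and Δprw1 strains without reporters and, by ChIP-qPCR, also found less H3K9me2 to the right of cenH. It concluded that reporter insertion was not the reason for the loss in its ChIP-seq.

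In Δprw1 the loss stood out in contig part 4. Of the 16 windows of part 4, 15 were lower than in wild-type, whereas 6 of 16 were in part 1, 4 of 16 in part 2 and 2 of 17 in part 3. Over all windows 48.3% were lower. The median log2 fold change was -1.74 in part 1, -1.44 in part 2, -1.59 in part 3 and -2.63 in part 4. Part 3 held the window where Δprw1 was nearest to wild-type. In that window, from 10201, it had 2682, 11725 and 3849, against 15652 and 8059 in wild-type (-0.96 ± 0.70, adjusted p = 0.21), and the groups overlapped. As a log2 ratio of part 4 to the other contig windows, Δprw1 was at -3.68, -3.69 and -3.73, against -2.73 and -2.67 in wild-type (difference -1.0, exact p = 0.1, the smallest possible). The ratio varied little between the 3 Δprw1 libraries (SD 0.03), while the highest of their contig sums was 3.44 times the lowest. The Δfkh2 ratios were -2.81, -2.73 and -2.93 (difference -0.13, exact p = 0.2), and those of clr6-1 were -2.98 and -2.89 (difference -0.24, exact p = 0.333). The clr3-D232N ratios were -3.06, -3.33 and -3.30 (difference -0.53, exact p = 0.1), but 0.66 with medians over windows in place of sums. Without the windows that overlap the inverted repeats the difference was -1.42 in clr3-D232N and -1.15 in Δprw1.

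**Figure D3:**
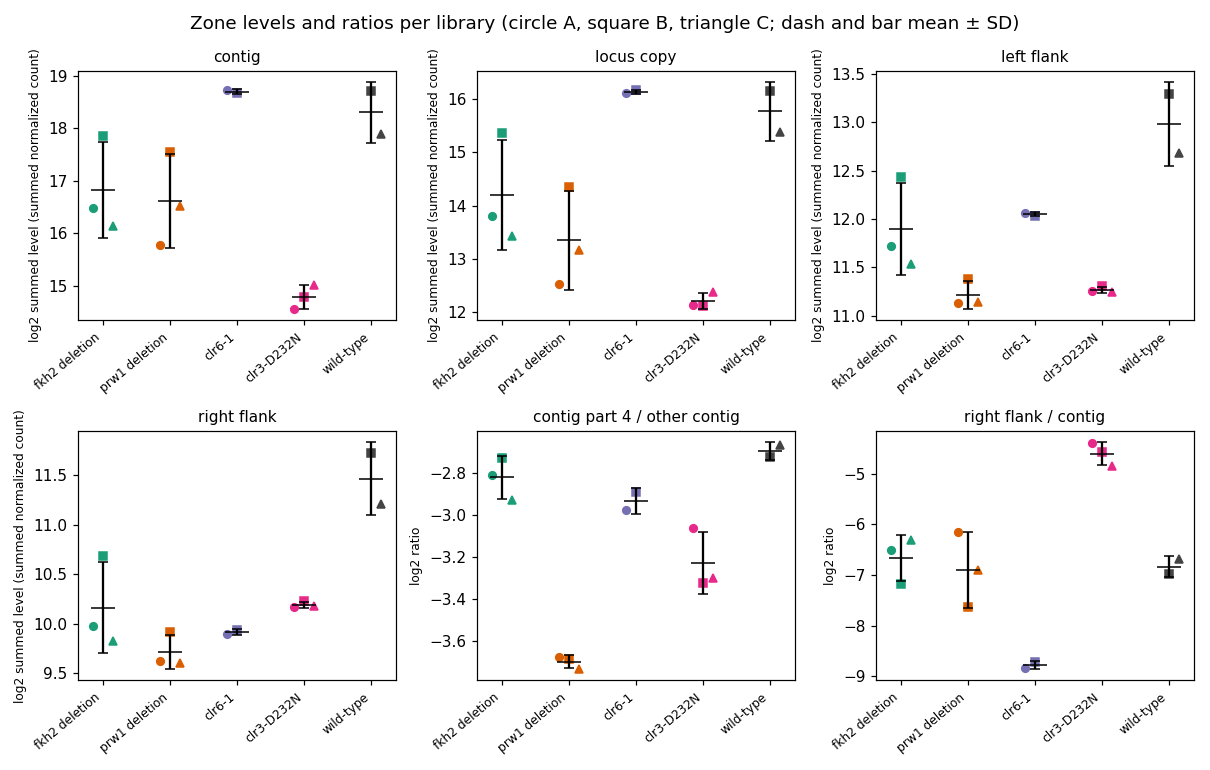
Log2 summed normalized count of 4 zones and 2 log2 ratios, 1 point per library (circle A, square B, triangle C) with the genotype mean ± SD. The 3 Δprw1 points lie at -3.68 to -3.73 in the ratio of contig part 4 to the other contig windows, below the other genotypes, and the 2 clr6-1 points at -8.83 and -8.72 are lowest in the ratio of right flank to contig.

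In Δfkh2 the loss was spread over the contig with few calls. Contig log2 fold changes ran between -2.78 and -0.92, and 7 of 65 windows were called (36.0% of all windows were). These were the first and last windows, those from 16501, 17101 and 17401, and those from 1501 and 6601. In the window from 6601, Δfkh2 had 375, 1619 and 347, against 2874 and 2261 in wild-type (-1.72 ± 0.54, adjusted p = 0.0043). The window from 18901 had the highest fold change, with 1317, 3401 and 987 in Δfkh2, against 4749 and 2474 in wild-type (-0.92 ± 0.63, adjusted p = 0.18). Δfkh2 B lay within the wild-type range there and in 32 of the 65 contig windows in all, and A and C below it in all 65.

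The mutants were also set against each other in the same fit. In clr3-D232N, 94 of the 113 windows were lower than in clr6-1, among 41.2% of all windows. These were all 65 contig windows, all 25 of the locus copy and 4 of the left flank. Against Δfkh2, 71 were lower in clr3-D232N, among 25.4% of all windows, and against Δprw1 46 were, among 3.33%. In contig part 2 all 16 windows were lower in clr3-D232N than in each of the other mutants. In part 3, 6 of 17 were lower than in Δprw1 and 6 of 17 than in Δfkh2. In the contig window from 12601 the clr3-D232N counts did not differ detectably from those of Δprw1 (-0.56 ± 0.62, adjusted p = 0.58) or Δfkh2 (-0.53 ± 0.62, adjusted p = 0.48).

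Δprw1 was lower than clr6-1 in 56 windows, among 10.7% of all windows. All 25 locus copy windows and 15 of the 16 windows of contig part 4 were among them, and 1 of 17 of part 3. This count was 93 without Δprw1 B, 18 without Δprw1 A, 29 without Δprw1 C, 33 without clr6-1 A and 36 without clr6-1 B. Δprw1 was lower than Δfkh2 in 14 windows, among 20.3% of all windows. Of these, 2 were on the left flank and the other 12 at the repeat edges or from the end of mat3-Mc to the start of the right repeat. The largest difference was at chrII:2134201-2134500 (-3.32 ± 0.46, adjusted p = 2.3e-10). The count was 22 without Δfkh2 A and 9 without Δfkh2 B. Δfkh2 was lower than clr6-1 in 2 windows, chrII:2130601-2130900 and chrII:2135401-2135700, which are a repeat sequence counted in both places, among 0.20% of all windows. That count was 86 without Δfkh2 B, 32 without Δprw1 B and 0 without any one of 9 other libraries.

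The locus copy on chromosome II followed the contig ends, with which it shares its sequence. Summed counts were 4483, 4441 and 5306 in clr3-D232N, against 73176 and 42687 in wild-type (log2 difference -3.56, exact p = 0.1), and 70782 and 73361 in clr6-1 (0.37, exact p = 0.667, and -0.02 without wild-type C). In Δprw1 they were 5878, 20917 and 9142 (-2.43, exact p = 0.2) and in Δfkh2 14220, 42266 and 11052 (-1.57, exact p = 0.2). All 25 windows were called lower in clr3-D232N, 18 in Δprw1, 10 in Δfkh2 and 2 in clr6-1. Over all windows 64.9%, 48.3%, 36.0% and 36.4% were, so Δfkh2 at 40% was near its share and clr6-1 at 8% below it. The window with the lowest fold change in clr3-D232N, chrII:2132101-2132400, lies left of mat3-Mi and had 44.3, 44.5 and 48.1 in clr3-D232N, against 2940.4 and 1634 in wild-type (-5.64 ± 0.61, adjusted p = 6e-19). Its clr3-D232N counts too were, per base, below those of the median 5 kb bin.

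**Figure D4:**
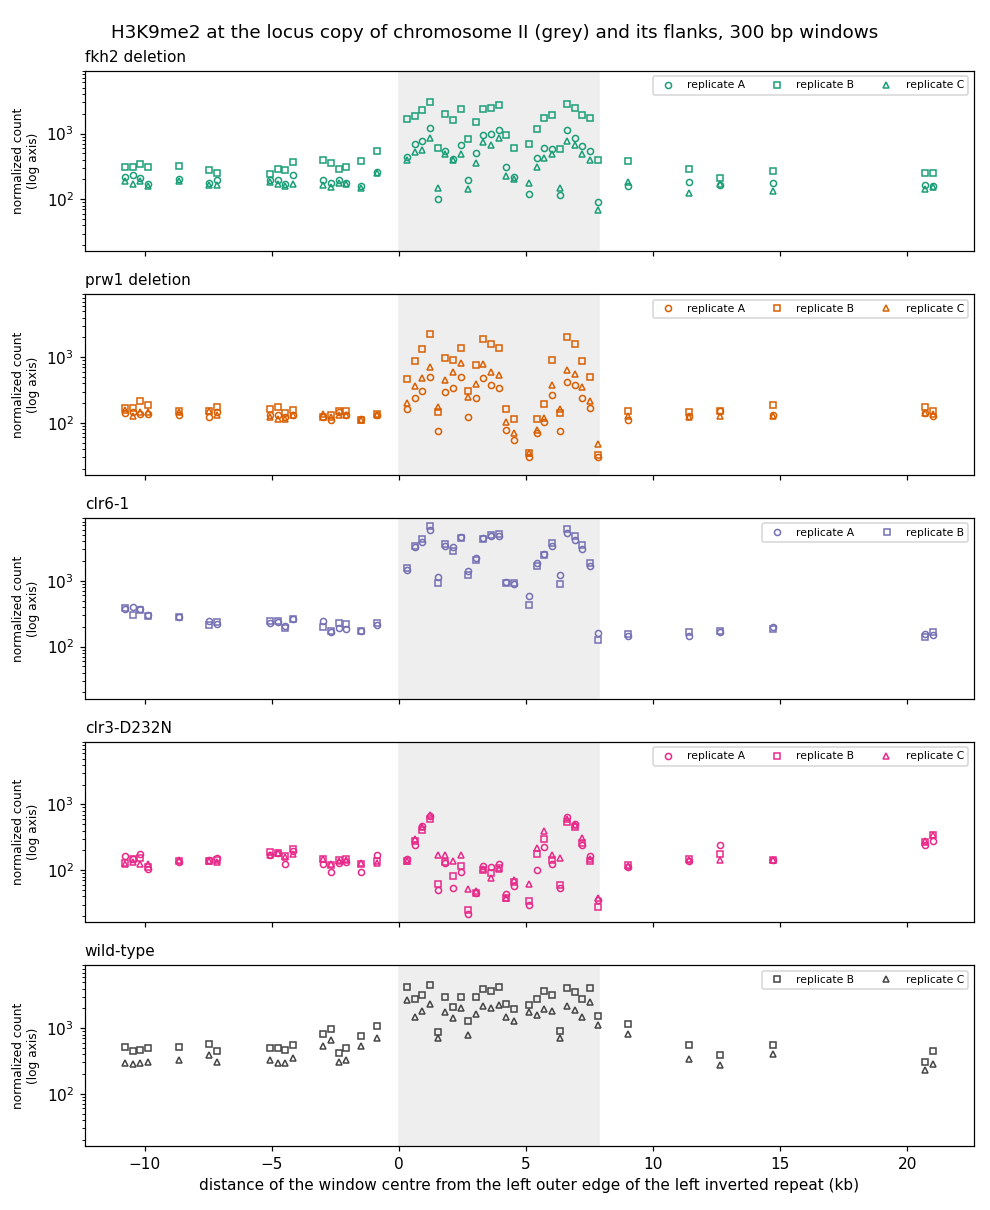
Normalized count (log axis) of each chromosome II window against its distance from the outer edge of the left repeat (kb), 1 panel per genotype, with the locus copy in grey. On the right flank the wild-type points lie above most mutant points, and in the 3 windows farthest left the clr6-1 points, 297 to 396, lie within the wild-type range of 283 to 519.

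Outside the repeats wild-type counts were lower than at the locus, over genes. They were not divided by input, so the mark and local background were not separated. The 17 left flank windows reached from 10.9 kb to 0.7 kb before the left repeat. Summed counts were 4280 and 4199 in clr6-1, 2446, 2527 and 2427 in clr3-D232N, 2242, 2662 and 2254 in Δprw1, and 3383, 5546 and 2973 in Δfkh2, against 9995 and 6548 in wild-type. Log2 differences were -0.93 for clr6-1 (exact p = 0.333), -1.71 for clr3-D232N (exact p = 0.1), -1.77 for Δprw1 (exact p = 0.1) and -1.08 for Δfkh2 (exact p = 0.2). Every mutant library was below both wild-type libraries. These windows had passed a filter on level over all libraries, in which wild-type held the highest sums. Part of the direction and of the calls could be set by that filter. The 5 kb bins described below were not filtered. With TMM factors from the windows Δfkh2 and clr3-D232N would be 0.12 and 0.10 above wild-type. All 17 windows were called lower in Δprw1 and in clr3-D232N, 5 in Δfkh2 and 4 in clr6-1. Over all windows 48.3%, 64.9%, 36.0% and 36.4% were, so Δfkh2 at 29.4% and clr6-1 at 23.5% were not above their shares.

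The nearest left flank window, chrII:2128201-2128500, overlaps rpp202, which encodes an acidic protein of the ribosomal stalk, and had the highest wild-type level of the flank. It had 212 and 226 in clr6-1, against 1074 and 709 in wild-type (-2.03 ± 0.43, adjusted p = 1.4e-05). In Δprw1 it had 129.8, 137 and 133 (-2.74 ± 0.38, adjusted p = 3.4e-12), in clr3-D232N 173, 139 and 129.6 (-2.60 ± 0.38, adjusted p = 3.1e-11) and in Δfkh2 264, 538 and 249 (-1.35 ± 0.37, adjusted p = 0.00099). All mutants were below wild-type without overlap. At chrII:2126401-2126700, at the start of SPBC23G7.14, clr6-1 had 168 and 170.0, against 958 and 654 in wild-type (-2.25 ± 0.40, adjusted p = 2.3e-07), its lowest fold change on this flank. Δfkh2 (-1.83 ± 0.34) and clr3-D232N (-2.81 ± 0.35) were also lowest there.

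Farther out, clr6-1 was near the wild-type level, and Δprw1 and clr3-D232N were below it. Over SPBC23G7.10c, at chrII:2118301-2118600, clr6-1 had 375 and 383, against 519 and 298 in wild-type (-0.10 ± 0.37, adjusted p = 0.88). Δprw1 had 142, 171 and 155 in that window (-1.39 ± 0.34, adjusted p = 9.5e-05) and clr3-D232N 166, 127 and 123 (-1.56 ± 0.34, adjusted p = 1.1e-05). Δfkh2 had 217, 312 and 192 (-0.76 ± 0.34, adjusted p = 0.04), with 1 library inside the wild-type range. The next 2 windows of that gene gave clr6-1 fold changes of -0.06 and -0.05. Between these ends lie rpt6, a proteasome ATPase, and mag2, a DNA glycosylase. At chrII:2121601-2121900 in rpt6, clr6-1 had 245 and 211, against 569 and 392 in wild-type (-1.07 ± 0.37, adjusted p = 0.01, not called).

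The 6 right flank windows lay from 1.0 to 13.3 kb beyond the right repeat. They had passed the same filter on level, and their wild-type sums were the highest too. Summed counts were 953 and 983 in clr6-1, 1149, 1198 and 1162 in clr3-D232N, 791, 965 and 779.5 in Δprw1, and 1009, 1648 and 906 in Δfkh2, against 3388 and 2364 in wild-type. Log2 differences were -1.55 for clr6-1 (exact p = 0.333), -1.75 for Δprw1 (exact p = 0.1), -1.30 for Δfkh2 (exact p = 0.2) and -1.28 for clr3-D232N (exact p = 0.1), where clr3-D232N would be 0.54 above wild-type with TMM factors from the windows. Here clr6-1 was as low as the deletions, and its ratio to the contig was the lowest of the 13 libraries. The log2 ratio of right flank to contig was -8.83 and -8.72 in clr6-1, against -6.98 and -6.68 in wild-type (difference -1.94, exact p = 0.333, the smallest possible). For the left flank it was -6.66 and -6.63 in clr6-1, against -5.42 and -5.22 in wild-type (-1.33, exact p = 0.333). In clr3-D232N both ratios were above wild-type, by 2.23 on the right and 1.79 on the left (exact p = 0.1 each). The flank counts include background and can fall little below it, whereas the wild-type contig stood far above it. The rise of these ratios in clr3-D232N therefore does not show that the mark was kept on the flanks. Sizes of these ratios depended on the windows used. Without the 25% lowest windows, which leaves 1 window on each flank, they were 0.44 on the right and 0.93 on the left for clr3-D232N and -3.11 and -2.39 for clr6-1, and with medians 3.67 and 3.42 for clr3-D232N.

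The first right flank window, chrII:2138101-2138400, overlaps the start of emc3, which encodes a subunit of the endoplasmic reticulum membrane complex. Counts were 144 and 153 in clr6-1, against 1153 and 822 in wild-type (-2.73 ± 0.43, adjusted p = 6e-09). They were 158, 383 and 186 in Δfkh2 (-2.03 ± 0.36, adjusted p = 3.2e-07), 112, 152 and 125 in Δprw1 (-2.93 ± 0.37, adjusted p = 2e-14) and 111, 122 and 117 in clr3-D232N (-3.08 ± 0.37, adjusted p = 1.3e-15). This was the lowest fold change of each mutant on that flank, and no mutant overlapped wild-type. At chrII:2140501-2140800, in mtd1, all mutants were again called lower, by -1.15 to -1.76. At chrII:2143801-2144100, in the ribosomal protein gene rpl401, all were called lower by -1.33 to -1.74. That gene has a near copy elsewhere on chromosome II, with which reads could be shared. At chrII:2141701-2142000, in srp40, only Δprw1 passed (-1.19 ± 0.32, adjusted p = 0.00055), and clr3-D232N had 239, 176 and 144, against 386 and 275 in wild-type (-0.83 ± 0.32, adjusted p = 0.014).

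The farthest right flank windows set clr3-D232N apart. Both lie in aha1, which encodes a co-chaperone of Hsp90. At chrII:2150101-2150400, clr3-D232N had 278, 342 and 342, against 451 and 288 in wild-type (-0.20 ± 0.33, adjusted p = 0.6). Δprw1 had 127, 154 and 135 (-1.41 ± 0.33, adjusted p = 5.6e-05) and clr6-1 147 and 168 (-1.23 ± 0.38, adjusted p = 0.0037), both called lower. Δfkh2 had 158, 253 and 151 (-0.98 ± 0.33, adjusted p = 0.0082). In this window clr3-D232N was higher than Δprw1 by 1.22 ± 0.31 (adjusted p = 0.00075), the only one of the 113 windows called higher in clr3-D232N than in another mutant, where 7.0% of all windows were higher than in Δprw1. Against clr6-1 the difference was 1.03 ± 0.35 (adjusted p = 0.0077) and against Δfkh2 0.78 ± 0.30 (adjusted p = 0.027), neither called. At chrII:2149801-2150100, clr3-D232N had 239, 268 and 275, against 305 and 229 in wild-type (-0.03 ± 0.33, adjusted p = 0.93), and no mutant was called.

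**Figure D5:**
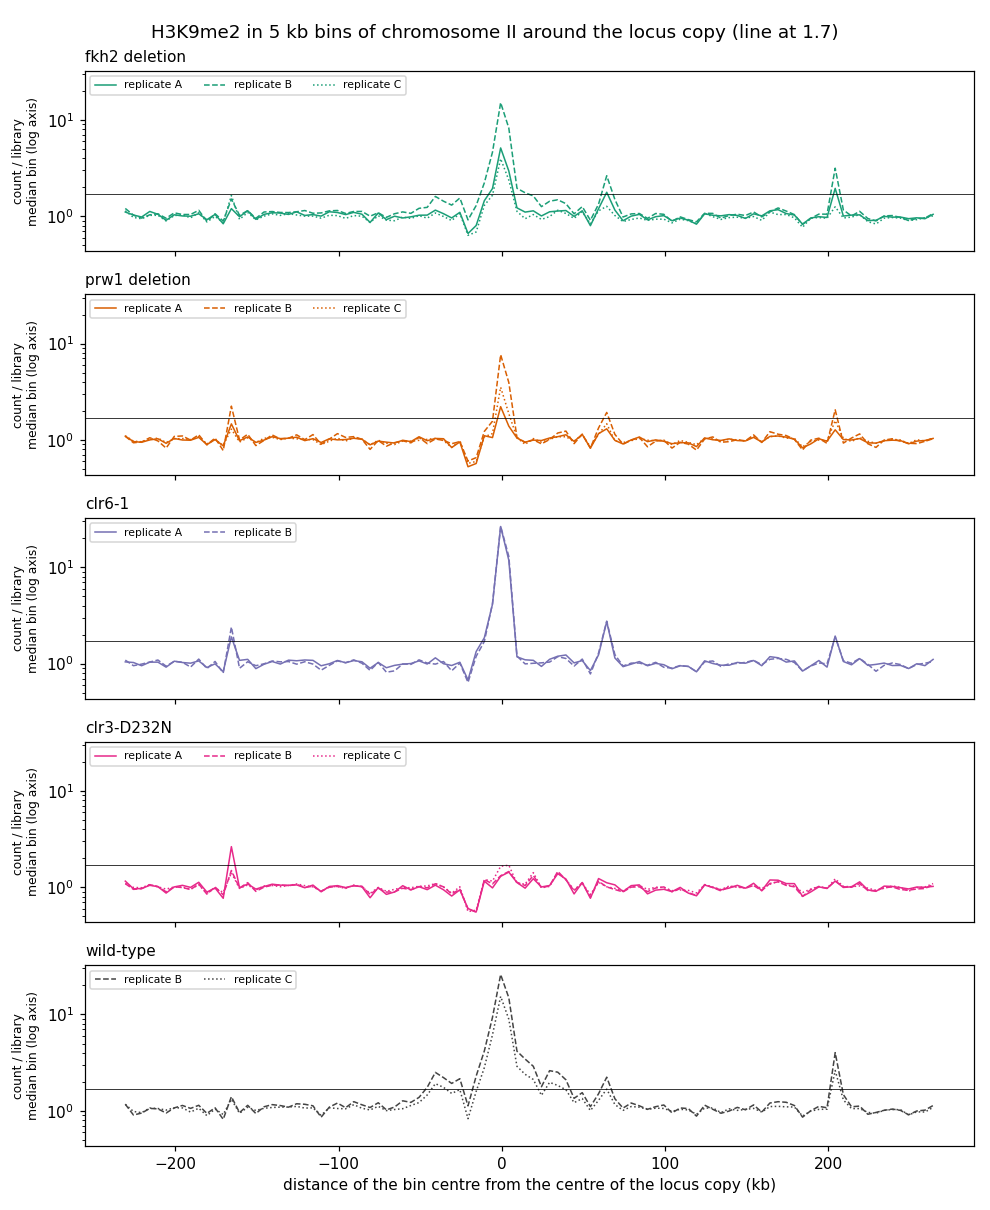
Count of each 5 kb bin divided by the library's median bin (log axis) against distance from the centre of the locus copy (kb), 1 panel per genotype and 1 line per replicate, with a line at 1.7. Beside the locus the wild-type lines lie above those of the mutants, at 4.17 and 2.90 in the bin from 2140001, where the mutant lines lie between 1.05 and 1.96.

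The 5 kb bins, which were not filtered by level, showed how far raised counts reached beside the locus. Counts were not divided by input, and the extent of H3K9me2 itself was not tested. Of the 100 chromosome II bins, 45 were left of the locus copy, 3 overlapped it and 52 were right of it. Bins above 1.7 times the library median adjoined the locus copy on the right for 7 bins (35 kb) in wild-type B and 3 bins (15 kb) in wild-type C. In the mutants that stretch was 2 bins in Δfkh2 B and 0 in the other 10 libraries. On the left it was 2 bins in wild-type B and 1 in wild-type C, 1 in Δfkh2 B, 1 in clr6-1 A and 0 in the rest. The set-aside region around mat1 falls in the left bins from 2110001 and 2115001, and without these bins the stretch became 6 bins in wild-type B and stayed at 1 in wild-type C. Anywhere on the left flank 7 and 3 bins were above that level in wild-type, and on the right flank 9 and 6. In the mutant libraries these counts were at most 2 on the left and at most 4 on the right. Over all bins, 7.86% and 5.99% were above that level in wild-type B and C, against 1.94% to 4.25% in the mutant libraries. Fewer bins were thus above it in the mutants across the genome as well.

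Of the 105 bins, 14 were called lower in clr3-D232N (3.89% of all bins), 10 in Δprw1 (4.17%), 5 in clr6-1 (3.65%) and 4 in Δfkh2 (2.34%), and none was called higher (0.159%, 0%, 0.238% and 0.159% of all bins in clr3-D232N, Δprw1, clr6-1 and Δfkh2). At an unadjusted p below 0.05, 0 of them were higher in clr3-D232N and in Δprw1, 1 in clr6-1 and 2 in Δfkh2. The count rested on wild-type B in all mutants (without it 9 in clr3-D232N, 6 in Δprw1, 3 in clr6-1 and 0 in Δfkh2), and in clr6-1 also on wild-type C (10 without it) and clr6-1 B (2 without it). In Δfkh2 it was 2 without replicate A, 9 without B and 2 without C.

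Right of the locus, the bin from 2140001 (mtd1, srp40 and rpl401) was at 1.18 and 1.20 times the median in clr6-1, 1.1 to 1.13 in clr3-D232N, 1.05, 1.06 and 1.06 in Δprw1, and 1.22, 1.96 and 1.13 in Δfkh2, against 4.17 and 2.90 in wild-type. All 4 mutants were called lower there (-1.57 in clr6-1, -1.66 in clr3-D232N, -1.74 in Δprw1 and -1.29 in Δfkh2). The bin from 2145001 was also called in all 4. The bin from 2150001, which holds the end of aha1, was at 1.23, 1.33 and 1.42 in clr3-D232N, against 2.91 and 2.12 in wild-type (-0.91 ± 0.16, adjusted p = 0.0005, under the fold threshold), and was called in clr6-1 (-1.26) and Δprw1 (-1.30). The bin from 2155001, where the third reporter is inserted, was at only 1.78 and 1.45 in wild-type, below the bins on either side. All 4 mutants were lower there (-0.58 to -0.75, adjusted p of 0.00035 or less), under the fold threshold. The bin from 2160001 was at 2.62 and 1.98 in wild-type and was called in clr6-1, Δprw1 and clr3-D232N (-1.09, -1.15 and -1.14).

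Left of the locus the bins from 2120001 and 2115001 were called lower in Δfkh2, Δprw1 and clr3-D232N and not in clr6-1. The bin from 2120001 was at 1.85 and 1.7 in clr6-1, against 4.18 and 2.81 in wild-type (-0.98 ± 0.25, adjusted p = 0.012). In the bin from 2115001, part of which was set aside with mat1, clr6-1 was at 1.33 and 1.19, against 2.30 and 1.59 in wild-type (-0.59 ± 0.21, adjusted p = 0.065), and the other mutants at 0.553 to 1.29. The bin from 2090001 was at 1.15 and 0.989 in clr6-1, against 2.51 and 1.92 in wild-type, and was called in clr6-1, Δprw1 and clr3-D232N (-1.04, -1.09 and -1.03). Of the 3 bins across the locus copy, that from 2125001 was at 0.986, 1.09 and 1.16 in clr3-D232N and 1.06, 1.57 and 1.17 in Δprw1, against 9.34 and 6.16 in wild-type, and was called in both (-2.84 ± 0.39, adjusted p = 3e-05, and -2.61 ± 0.38, adjusted p = 6e-05). That from 2135001 was at 1.44, 1.46 and 1.7 in clr3-D232N and 1.39, 3.95 and 1.88 in Δprw1, against 14.9 and 8.95 in wild-type, and was called in both (-2.96 ± 0.55, adjusted p = 0.00064, and -2.31 ± 0.54, adjusted p = 0.0047). The bin from 2130001 was at 1.30, 1.32 and 1.65 in clr3-D232N and at 26.4 and 26.6 in clr6-1, against 26.0 and 15.4 in wild-type, and was called in clr3-D232N only (-3.86 ± 0.65, adjusted p = 0.00027).

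Farther from the locus, some bins also stood above the library median. The bin from 2335001 (cdc14 and SPBC24C6.09c) was at 1.16, 1.16 and 1.22 in clr3-D232N, against 4.02 and 2.63 in wild-type (-1.48 ± 0.31, adjusted p = 0.0017). Δfkh2 was at 1.95, 3.16 and 1.26 there, Δprw1 at 1.28, 2.06 and 1.59 and clr6-1 at 1.93 and 1.89, none of them called. The bin from 2195001, picked with its values in view, was at 2.73 and 2.76 in clr6-1 and at 1.11, 1.01 and 1.01 in clr3-D232N, against 2.24 and 1.68 in wild-type (0.49 ± 0.28, adjusted p = 0.3, and -0.90 ± 0.25, adjusted p = 0.017). Likewise picked, the bin from 1965001 was at 1.89 and 2.4 in clr6-1, against 1.41 and 1.32 in wild-type (0.66, adjusted p = 0.18, not called). On the contig, the bins were called in clr3-D232N from 1, from 5001 and from 15001 (-4.32, -4.87 and -4.01). In the bin from 10001, which holds its residual counts, clr3-D232N was at 9.1, 11 and 13.1, against 97.4 and 52.8 in wild-type (-2.76 ± 0.66, adjusted p = 0.0059). The fifth contig bin is the last 128 bases, with few counts, and was called lower in Δprw1 and clr3-D232N.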

How the data were processed

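H3K9me2 ChIP-seq counts of 13 libraries were used. The series has 15 ChIP samples and 15 inputs; 1 replicate each of wild-type and clr6-1 had been dropped by the authors as an outlier, and inputs were not used here. The deposited values were raw fragment counts per 5 kb bin and per 300 bp window, made by the authors with csaw after trimming (Trimmomatic 0.39), alignment to ASM294v2 with a mating type contig added (Bowtie2 2.4.2), duplicate removal (Picard 2.25.2) and removal of set-aside regions around mat1, fkh2, prw1, ade6 and ura4. Windows had been kept by the authors where they exceeded background by 1.7 times in the median, so windows that were low everywhere were not tested. A window could also pass mainly through high wild-type counts, which favours lower calls in the mutants. Tools and build other than csaw are those of the submitters' processing notes.

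Here counts were divided by DESeq2 (1.42.0) size factors of the 5 kb bins, 0.465 to 2.18. All 1500 windows, or all 2520 bins, of all 13 libraries were fitted with genotype as the only term by edgeR 4.0.16 (quasi-likelihood F test, Benjamini-Hochberg adjustment over the whole table; R 4.3.3). A region was called where its log2 fold change exceeded 1 in size and its adjusted p was under 0.005. Sums per zone were tested by exact 2-sided permutation of libraries. Repeats were found with BLAST 2.17.0. Other steps used Python 3.11.15 with NumPy 2.4.6, pandas 2.3.3 and Matplotlib 3.10.9. Alternatives were a DESeq2 Wald test, other scaling factors, filters and thresholds, a replicate term and each library left out. DESeq2 was fitted on bins with one mean dispersion, since its local fit failed. On simulated counts for Δprw1 against wild-type at a log2 change of 2, 127 of 200 changed windows among 1500 were called, with 0 false calls, and 200 of 200 bins. Every simulated window had the median dispersion, 0.15, and every bin 0.00079, without the whole-library shifts seen among replicates. These rates need not hold for the real libraries.

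The windows named were drawn from those of highest wild-type level and of lowest or highest fold change in a mutant, per zone and contig part. Not all of these are given above, whereas all windows of the right flank are. The bins named were all called ones and those next to the locus. Any other window or bin was picked with its values in view. The regions, gene names and tests were chosen with earlier results of these data known. Columns were matched to samples by genotype and replicate letter.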

Additional observations from a re-analysis of the deposited data

How the results depend on the processing

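The wild-type group had 2 libraries that differed by nearly as much as some mutants did from it, and no single-value test could pass 0.05. The shared sequences of contig, repeats and mat1 could not be separated, nor could reads that cenH shares with centromeres and telomeres. Fold changes depend on the scaling. TMM factors of the windows raised the median of all windows on the log2 scale by 1.89 for clr3-D232N, 1.5 for Δprw1, 1.13 for Δfkh2 and 0.16 for clr6-1, and with them left flank sums were 0.12 (Δfkh2) and 0.10 (clr3-D232N) and the right flank sum 0.54 (clr3-D232N) above wild-type. Contig sums were then -0.28 (Δfkh2), -0.17 (Δprw1) and -1.69 (clr3-D232N) and locus copy sums -0.37 (Δfkh2), -0.91 (Δprw1) and -1.75 (clr3-D232N). Counts of windows called lower against wild-type then were 7 in Δfkh2, 21 in Δprw1 and 70 in clr3-D232N, 36 for Δprw1 against clr6-1 and 1 for Δfkh2 against clr6-1. The cause of changes below was not tested.

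With medians over windows in place of sums, the ratio of contig part 4 to the rest was 0.66 in clr3-D232N, the ratio of contig to windows outside 1.58 in Δprw1 and 2.45 in clr6-1, and the ratios of left and right flank to contig 0.31 and 0.33 in Δprw1 and 3.42 and 3.67 in clr3-D232N. With the 25% lowest windows left out, which leaves 1 left and 1 right flank window, the right flank ratio was -0.64 in Δfkh2, the left and right flank ratios were 0.93 and 0.44 in clr3-D232N, -1.03 and -1.23 in Δprw1, and for clr6-1 -2.39 and -3.11, and window counts were 7 for clr6-1 against wild-type and 4 for Δfkh2 against clr6-1. Scaling by total bin counts gave 13 windows in Δfkh2 and 20 in clr6-1, 32 for Δprw1 against Δfkh2 and 6 for Δfkh2 against clr6-1, and 0, 5 and 8 bins in Δfkh2, Δprw1 and clr3-D232N. With only the compared genotypes in the fit, Δfkh2 had 1 window and 0 bins, and 0 windows against clr6-1, where DESeq2 also gave 0. An adjusted p below 0.05 gave 49 windows in Δfkh2, 85 for Δprw1 against clr6-1 and 71 for Δfkh2 against clr6-1. Without the fold threshold 34 bins were called in clr3-D232N, 26 in Δprw1, 16 in clr6-1 and 20 in Δfkh2.

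Leaving out replicate B of both deletions, an alternative chosen after seeing the data, gave 107 windows and 15 bins in Δfkh2, 112 windows and 18 bins in Δprw1, and 95 and 88 windows for Δprw1 and Δfkh2 against clr6-1. Leaving out 1 library at a time gave 85 to 110 windows in clr3-D232N, 36 to 108 in Δprw1, 9 to 95 in Δfkh2 and 7 to 15 in clr6-1. It gave 9 to 22 for Δprw1 against Δfkh2, 18 to 93 for Δprw1 against clr6-1 and 0 to 86 for Δfkh2 against clr6-1. For bins it gave 9 to 17 in clr3-D232N, 6 to 13 in Δprw1, 0 to 9 in Δfkh2 and 2 to 10 in clr6-1. In clr6-1 the contig sum was between -0.0135 and 0.80 and the locus copy sum between -0.0222 and 0.76. In Δprw1 the left flank ratio was between -0.46 and 0.31 and the right flank ratio between -0.44 and 0.31. In Δfkh2 the right flank ratio was between -0.00311 and 0.43 and the ratio of contig to windows outside between -0.12 and 0.36.

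Replicate letters gave no consistent pairing of the libraries: of 22 same-letter pairs 12 had a correlation of deviations above 0.1, over a range of -0.724 to 0.657. With wild-type B, replicate B of Δfkh2, Δprw1 and clr3-D232N had 0.35, 0.46 and 0.29, and that of clr6-1 -0.23. Whether the letters mark a shared batch was not tested. With the replicate block 108 windows were called in clr3-D232N, 72 in Δprw1, 30 in Δfkh2 and 12 in clr6-1, and 42 for Δfkh2 against clr6-1 where 2 were called without the block.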
